A study of Mus musculus with 6 samples.

Results

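The 9 genes described here are the paired-type homeobox genes *Alx1*, *Alx4*, *Prrx1* and *Prrx2* and the LIM homeobox genes *Lhx2*, *Lhx6*, *Lhx8*, *Lhx9* and *Lmx1b*. They were chosen by name as homeobox genes of head and limb mesenchyme, with earlier results of these data known. All 9 were found among the 25039 genes to which the transcripts of the RNA-Seq table were matched, and 19271 of those genes had reads. RNA had been sequenced from primary mouse embryonic fibroblasts (MEFs), which are fibroblasts grown out from embryos, of 2 genotypes, wild type (WT) and Anp32e null, with 3 libraries of each. The labels name no treatment, all cultures were grown in medium with serum and were below passage 8, and the number of embryos behind the 3 libraries of a genotype is not given in the sources used here. *Anp32e* encodes a chaperone that removes the histone variant H2A.Z, and the null cells came from *Anp32e*-/- embryos.

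The table lists, for each RefSeq transcript, the mean over the 6 libraries of the read counts after the authors divided each library by its size factor. This value is the mean normalized count, and the methods name default settings with no separate one for read pairs. It pools the WT and the Anp32e null libraries, so no value here compares the genotypes, no SD between replicates can be given, and the mean of 2190 normalized counts of *Anp32e* itself does not check the labels. The remaining columns of the table hold the authors' own comparison of the genotypes and were not used.

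Homeobox genes encode transcription factors that bind DNA through a homeodomain. PRRX1 and PRRX2 mark early mesenchyme of the limb buds and the face, and ALX1 and ALX4 act mainly in the mesenchyme of the frontonasal region, with ALX4 also at the anterior edge of the limb bud. LIM homeobox factors carry a pair of LIM domains ahead of the homeodomain, through which they bind the cofactor LDB1. In the limb bud, LHX2 and LHX9 act under the distal ectoderm and LMX1B gives the dorsal side its identity, while LHX6 and LHX8 act in the mesenchyme of the jaws and also in neurons of the ventral forebrain.

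The homeobox, the stretch that encodes the homeodomain, is shown first for the pair with the highest means and for a pair of which only one gene had reads, since reads can be told apart between relatives only where their sequences differ. Sequences were read from GENCODE transcripts on GRCm38, 180 bases each, and capitals mark the bases that differ within a pair.
Prrx1: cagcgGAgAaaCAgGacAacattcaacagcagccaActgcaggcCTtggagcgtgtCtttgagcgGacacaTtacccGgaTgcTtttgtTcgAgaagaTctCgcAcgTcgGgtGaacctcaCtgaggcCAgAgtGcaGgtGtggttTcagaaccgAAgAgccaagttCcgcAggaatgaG
Prrx2: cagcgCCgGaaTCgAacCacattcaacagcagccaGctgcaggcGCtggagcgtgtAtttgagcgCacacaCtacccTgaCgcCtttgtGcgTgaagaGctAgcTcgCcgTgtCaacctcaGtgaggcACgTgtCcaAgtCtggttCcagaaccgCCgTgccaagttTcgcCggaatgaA
Lhx6: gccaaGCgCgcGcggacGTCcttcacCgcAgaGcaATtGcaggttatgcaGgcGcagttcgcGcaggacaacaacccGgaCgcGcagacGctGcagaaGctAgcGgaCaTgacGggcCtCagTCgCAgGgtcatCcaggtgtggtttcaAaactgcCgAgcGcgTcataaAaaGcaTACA
Lhx8: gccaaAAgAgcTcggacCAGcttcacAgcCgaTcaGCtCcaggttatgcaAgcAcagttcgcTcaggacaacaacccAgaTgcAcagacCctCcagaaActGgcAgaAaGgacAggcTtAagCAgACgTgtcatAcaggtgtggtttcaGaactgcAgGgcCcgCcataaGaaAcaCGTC
The homeobox of *Prrx1* lies on the minus strand of chromosome 1, in coding exons at chr1:163261840-163261977 and chr1:163257901-163257942. That of *Prrx2* lies on the plus strand of chromosome 2 at chr2:30878454-30878591 and chr2:30879492-30879533. In both genes the intron interrupts the homeobox after 138 bases, and the same holds for *Alx1*, *Alx4*, *Lhx2* and *Lhx9*. In *Lhx6* and *Lhx8*, both on minus strands, it is split into 3 blocks of 42, 96 and 42 bases, which run from chr2:36091606-36091647 to chr2:36091095-36091136 and from chr3:154321627-154321668 to chr3:154311682-154311723. In *Lmx1b* the 3 blocks have 87, 78 and 15 bases.

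Within these pairs, *Prrx1* and *Prrx2* differed at 38 of 180 homeobox bases and *Lhx6* and *Lhx8* at 46. The homeobox was 79.4% identical between *Lhx2* and *Lhx9* and 76.7% identical between *Alx1* and *Alx4*. The longest stretch shared without a mismatch by the whole transcripts of a pair had 19 bases for *Prrx1* and *Prrx2*, 19 for *Alx1* and *Alx4*, 17 for *Lhx2* and *Lhx9* and 14 for *Lhx6* and *Lhx8*. No near-identical copy was thus found within these 4 pairs.

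The *Prrx* genes had the highest levels. *Prrx2* had a mean of 5327 normalized counts and *Prrx1* of 4902, which places them at percentiles 90.1 and 88.9 of all genes with reads. These means correspond to between 29049 and 36140 reads for *Prrx2* and between 26736 and 33262 for *Prrx1* over the 6 libraries, the range being set by which libraries the reads came from. Together the *Prrx* genes made up 74.8% of the summed means of the 9 genes.

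Among the LIM homeobox genes, *Lhx9* stood highest with a mean of 2332 normalized counts, at percentile 77.1 of genes with reads. *Lhx2* followed with 586, *Lmx1b* with 334 and *Lhx6* with 192. The median gene with reads had a mean of 350.2, so *Lhx2* lay above it by 1.67-fold, while *Lmx1b* and *Lhx6* lay below it. *Lhx8*, the closest relative of *Lhx6* among the members, is listed at 0. A count of 0 reads in 6 libraries allows up to 3 reads, which is a mean of up to 0.550 normalized counts, for counting error only.

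*Alx1* and *Alx4* were at or near 0. *Alx1* had a mean of 2.25 normalized counts, at percentile 16.5 of genes with reads, and *Alx4* one of 0.169. The annotated span of *Alx4* overlaps that of *Ext2*, a gene of heparan sulfate synthesis on the opposite strand with a mean of 4608 normalized counts. The study's methods name default settings and no strand setting, so whether counting used the strand is not known here. Whether exons of these genes overlap, and whether reads of one were counted for the other, was not tested.

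**Figure D1:**
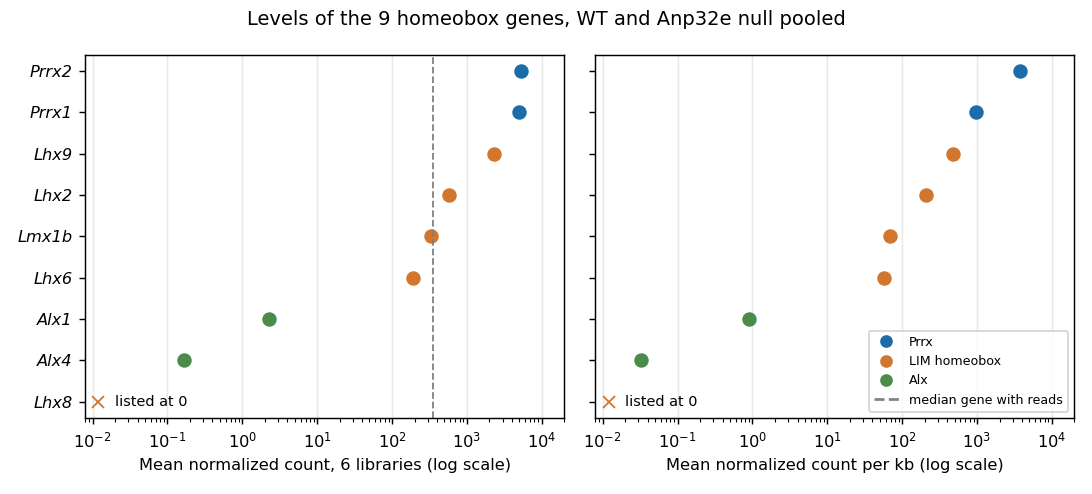
Mean normalized count over 6 libraries of each gene (left) and the same per kilobase of transcript (right), on log axes, with *Prrx* genes in blue, LIM homeobox genes in orange and *Alx* genes in green; the dashed line is the median gene with reads, at 350.2, and points have no error bars because WT and Anp32e null libraries are pooled. 6 genes lie between 192 and 5327 normalized counts, *Alx1* and *Alx4* lie at 2.25 and 0.169, and *Lhx8* is listed at 0.

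With each gene taken at its transcript of highest mean, the order of the 9 genes was the same per kilobase of transcript, the scale on which levels of different genes can be compared. *Prrx2*, whose transcript has 1441 bases, had 3696 normalized counts per kilobase, and *Prrx1*, with 4986 bases, had 983. The step from *Prrx1* to *Prrx2* was thus 1.09-fold between means and 3.76-fold per kilobase. With its longest transcript, NM_001025570, *Prrx1* had 446 per kilobase and stood below *Lhx9*. Levels per kilobase were 472 for *Lhx9*, 206 for *Lhx2*, 69.7 for *Lmx1b* and 56.6 for *Lhx6*, the last from its longest transcript with a known length. With their shortest transcripts of known length, *Prrx1* had 989 per kilobase, *Lhx9* 748, *Lhx2* 300 and *Lhx6* 58.8. *Lmx1b* and *Lhx6* were the closest neighbours on this scale, 1.23-fold apart. *Alx1* had 0.904 normalized counts per kilobase, 62.7-fold less than *Lhx6*. Whether neighbours in this order differ beyond the spread between cultures cannot be said from pooled means. The percentiles, the median gene, the share of the *Prrx* genes and the levels of relatives, partners and markers are on means that take no account of length.

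**Figure D2:**
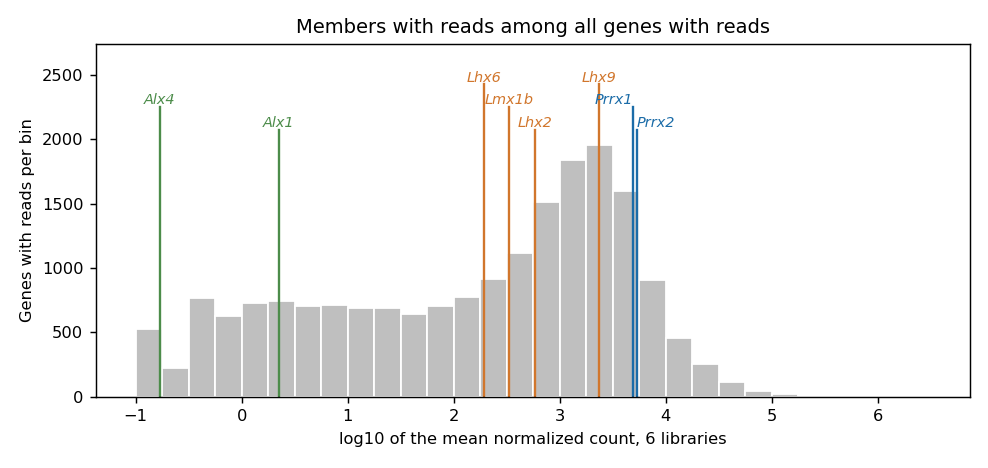
Number of genes with reads in bins of 0.25 on the log10 scale of the mean normalized count (grey bars), with the position of each of the 8 members that had reads as a vertical line whose height has no meaning. *Prrx1* and *Prrx2* lie to the right of the tallest bars, and *Alx1* and *Alx4* lie in the low range where a gene has a few reads in all.

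For *Alx1* and *Alx4*, the reads of each library could be read back from the pooled mean. Each mean is a sum of whole reads, each worth 1 part in 6 of 1 over the size factor of its library, and the lowest means of the table show the 6 worths directly. These gave size factors between 0.909 and 1.13. All 5922 transcripts with a mean above 0 and at most 5 split into whole reads in exactly 1 way. Libraries were numbered 1 to 6 by falling size factor, and their genotype is not known from the table, so no group is given to them.

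*Alx1* had 13 reads, with 0 reads in libraries 1 and 2, 5 in library 3, 1 in library 4, 2 in library 5 and 5 in library 6. Reads were therefore present in 4 of 6 libraries. The exact Poisson 95% interval of this total was 6.92 to 22.2 reads, for counting error only. *Alx4* had a single read, in library 4, with an interval of 0.0253 to 5.57 reads. These intervals treat each read as independent and do not cover the spread between libraries. The libraries were sequenced in paired-end mode, and whether the mates of a pair were counted separately is not known here. If they were, the intervals are too narrow, so whether they separate *Alx1* from *Alx4* cannot be said. *Alx4* and *Lhx8*, with its limit of 3 reads, were not distinguishable at this depth.

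The genes with several RefSeq transcripts were described further by transcript. The near-equal means of some of these transcripts show that a read on an exon they share was counted for each of them, so a transcript's mean is not the amount of that RNA. A difference between transcripts is the net of reads that touch only the parts that differ, and a read that reaches into a shared exon does not enter it. Exons are given as GENCODE annotates these accessions, which may differ from the annotation that the authors counted on.

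*Lhx9* is the member whose transcripts differ in the homeobox itself. Its transcript with the highest mean, NM_001025565 with 2332 normalized counts, and NM_010714, with 2232, end in a last exon at chr1:138825186-138828710. Neither has a complete homeobox in its coding sequence of 330 and 321 codons, since the exon with the first 138 bases of it, up to chr1:138832702, is spliced to that last exon. NM_001042577 ends instead at chr1:138830944-138831624, in a last exon of 681 bases that supplies the other 42 homeobox bases, at chr1:138831583-138831624, and has 397 codons. It had 1544 normalized counts, which is 66.2% of the highest. The difference of 788 normalized counts is the excess on the long last exon of 3525 bases over the short one, together with 28 bases by which the start of the first exon differs. It is a net value, from which any reads on the short exon are already subtracted. How many reads fell on the short last exon cannot be told from these means.

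*Prrx1* has 3 transcripts, all with a complete homeobox, which differ in what is encoded after it. NM_175686 and NM_011127, with 217 and 245 codons, share the last exon at chr1:163245119-163248396 and had 4902 and 4899 normalized counts. NM_001025570, with 200 codons, ends in an exon of 5077 bases at chr1:163252866-163257942 and had 2912, or 59.4% of the highest. The means of the first pair differed by 3.84 normalized counts, a net of 23 reads on NM_175686. By library these were 0, 7, 5, 5, 4 and 2 reads in libraries 1 to 6.

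*Lhx2* had 586 normalized counts for NM_010710, which starts at chr2:38350759, and 509 for NM_001290646, which starts at chr2:38339281. The 5 transcripts of *Lhx6* lay within 187.5 and 192 normalized counts. NM_001083125 and NM_008500, which start at the upstream end of the gene, had the same mean to the last digit listed, as had NM_001083126 and NM_001083127, which start downstream at chr2:36104060. The upstream pair exceeded the downstream pair by 3.75 normalized counts, a net of 22 reads with 1, 3, 4, 3, 8 and 3 in libraries 1 to 6. This net was above 0 in each of the 6 libraries. For NM_001355125, the highest of the 5 with 192 normalized counts, the net over the downstream pair was 7, 1, 5, 0, 1 and 10 reads. Its net over the upstream pair was 6, -2, 1, -3, -7 and 7 reads and so changed sign between libraries.

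**Figure D3:**
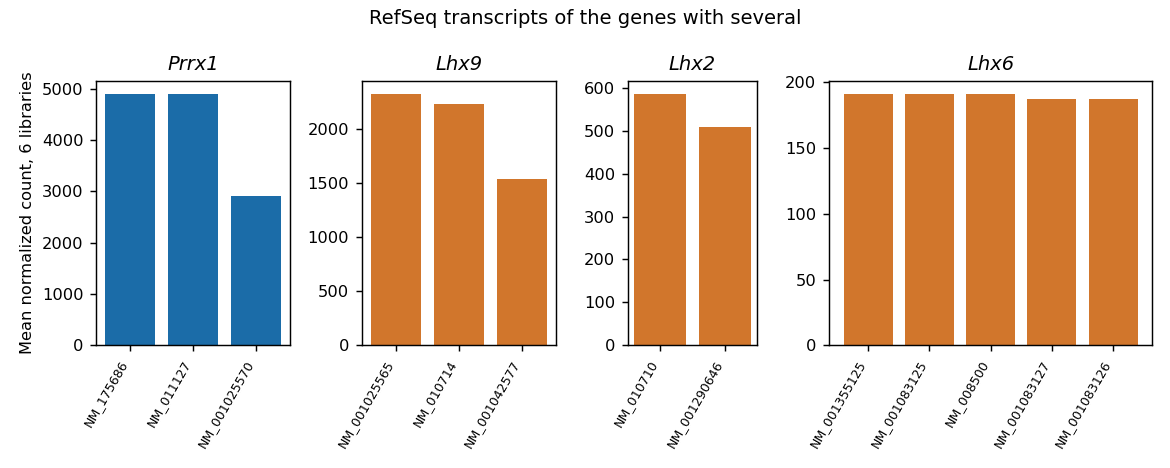
Mean normalized count over 6 libraries of each RefSeq transcript of *Prrx1*, *Lhx9*, *Lhx2* and *Lhx6*, each panel with its own axis from 0; bars have no error bars because the libraries are pooled, and reads on shared exons count for every transcript. NM_001025570 of *Prrx1* and NM_001042577 of *Lhx9* stand at 59.4% and 66.2% of the highest transcript of their gene, while the *Lhx6* transcripts lie close together.

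**Figure D4:**
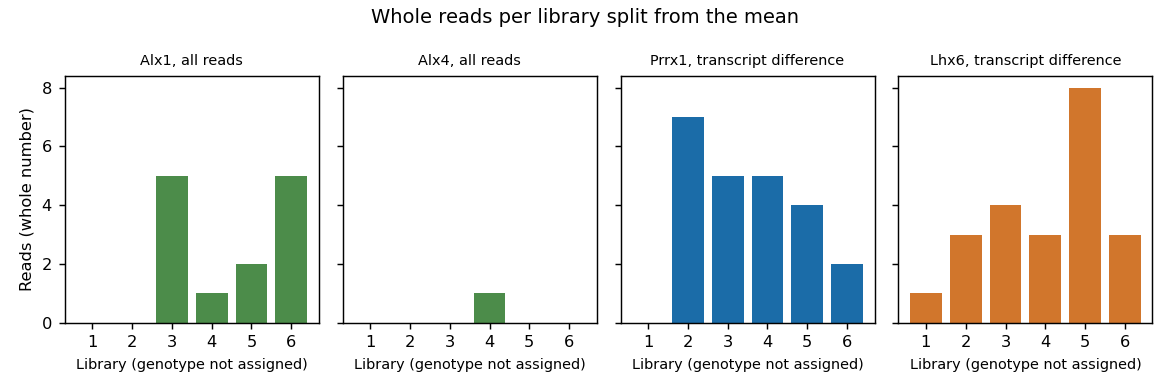
Whole reads in each of the 6 libraries, numbered by falling size factor and with no genotype assigned, for all reads of *Alx1* and *Alx4*, for the excess of NM_175686 over NM_011127 of *Prrx1* and for the excess of the upstream over the downstream transcripts of *Lhx6*. *Alx1* reads were found in libraries 3 to 6, the single *Alx4* read in library 4, and *Lhx6* had an excess of 1 to 8 reads in each library.

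In the genome, 5 of the 9 genes lie on chromosome 2. *Prrx2*, *Lmx1b*, *Lhx6* and *Lhx2* fall within 7.53 Mb, from chr2:30834972 to chr2:38369733 of GRCm38, and *Alx4* lies apart at chr2:93642384-93681339. *Prrx1*, at chr1:163245119-163313710, and *Lhx9*, at chr1:138825186-138848577, are both on the minus strand of chromosome 1. *Lhx8* is at chr3:154306294-154330659 and *Alx1* at chr10:102998707-103030215.

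Promoters are shown for 3 genes, one from the high, one from the middle and one from the bottom end of the order, as RefSeq windows of GRCm38.p6 without the bases that GENCODE annotates as exon. Capitals mark CG, a dinucleotide that reads the same on both strands and is frequent in CpG islands.
Prrx1: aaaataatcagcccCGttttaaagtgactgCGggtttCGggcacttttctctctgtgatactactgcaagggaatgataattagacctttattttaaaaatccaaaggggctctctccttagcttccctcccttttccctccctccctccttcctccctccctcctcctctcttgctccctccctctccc
Lhx2: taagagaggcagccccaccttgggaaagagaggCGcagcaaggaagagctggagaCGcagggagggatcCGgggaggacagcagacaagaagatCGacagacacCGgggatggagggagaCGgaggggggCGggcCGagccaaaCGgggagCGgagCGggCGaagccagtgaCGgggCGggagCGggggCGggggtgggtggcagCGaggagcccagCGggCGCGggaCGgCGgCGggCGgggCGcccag
Lhx8: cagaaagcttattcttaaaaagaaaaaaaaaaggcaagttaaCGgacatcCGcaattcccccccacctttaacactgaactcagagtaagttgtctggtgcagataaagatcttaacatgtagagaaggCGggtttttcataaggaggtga
These lie at chr1:163313711-163313900 on the minus strand, at chr2:38339031-38339280 on the plus strand and at chr3:154330660-154330810 on the minus strand, and hold 3, 25 and 3 CG. The *Lhx2* sequence lies before the start of NM_001290646, with 509 normalized counts. It is not the stretch before NM_010710, the transcript that stands for *Lhx2* in the order. Windows of 300 bases, 250 before to 50 after a start, were found for 7 of the 9 members, 10 windows in all. CG was present in 94.6% of the 32851 windows of all genes, with a median of 7 per window. The 2 *Lhx2* windows held 34 and 29 CG, more than 92.3% and 87.1% of all windows, *Prrx2* held 28 and *Lmx1b* 24. The *Lhx2* window with 29 CG, at chr2:38351058-38351357, lies after the GENCODE start of NM_010710 at chr2:38350759. The *Prrx2* window, at chr2:30845117-30845416, likewise lies after the GENCODE start of its transcript at chr2:30845059. The CG of these windows thus lie within annotated transcripts and not before a GENCODE start. The *Lmx1b* window, at chr2:33641049-33641348 on the minus strand, lies wholly upstream of the GENCODE start of its transcript at chr2:33640511. The *Prrx1* and *Lhx9* windows each held 6 and the *Lhx8* window 4, so the low counts include a gene with 4902 normalized counts and one listed at 0. TAAT, the core that many homeodomains bind, searched on both strands with overlapping matches counted, was found 4 times in the *Prrx1* window, 2 times in that of *Lhx9* and 3 times in the one *Lhx6* window that starts furthest downstream, and in none of the other 7. It is present in 58.0% of all windows.

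The relatives of these genes were mostly lower. Of 26 other paired-type and LIM homeobox genes, 4 had a mean of at least 10 normalized counts, 6 were listed at 0, and the median was 0.934, against 6 of 9 and a median of 334 for the members and 14243 of 25039 genes with a median of 43.3 over the whole table. The members and the relatives were chosen with earlier results of these data known, so this contrast is a description that depends on that choice. *Pitx1* (744) and *Shox2* (526), both regulators of limb growth, *Isl2* (58.9), a LIM homeobox gene of motor neurons, and *Phox2a* (20.4), of autonomic neurons, were those 4, named after their values were seen.

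The partners of LIM homeobox proteins had levels from near 0 to above those of the members. Of 10 such genes, 7 had a mean of at least 10 normalized counts, against 14243 of 25039 genes over the whole table. *Ldb1*, which encodes the cofactor that joins LIM factors into complexes, had a mean of 6362 normalized counts. This was above the mean of each of the LIM homeobox members, without regard to transcript length. *Rlim*, which encodes a ubiquitin ligase for LDB proteins, had 6459. *Lmo4*, which encodes a LIM-only protein that competes for LDB1, had 5192. The genes of the LDB-binding SSBP proteins had 2685 for *Ssbp3*, 1825 for *Ssbp4* and 1338 for *Ssbp2*. The rest of the list was lower, with 457 for *Lmo1*, 1.02 for *Ldb2*, 0.977 for *Lmo2* and 0.178 for *Lmo3*.

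**Figure D5:**
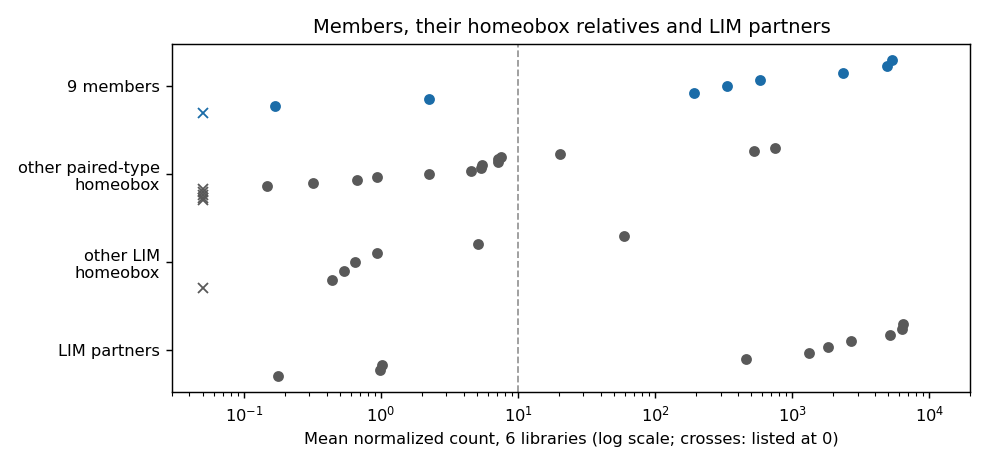
Mean normalized count over 6 libraries, on a log axis, of the 9 members, of 19 other paired-type and 7 other LIM homeobox genes and of 10 partners of LIM proteins; each point is a gene, crosses at the left are genes listed at 0, the vertical spread within a row only separates points, and the dashed line marks 10. Of the members 6 lie to the right of the line, against 4 of the 26 other homeobox genes and 7 of the 10 partners.

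The cells carried markers of fibroblasts. Of these, 11 of 12 such genes had a mean of at least 10 normalized counts, with *Col1a1* at 26142, and *Lum* at 1.33 was the exception. The 11 ranged from *Dcn* at 144, below the 350.2 of the median gene with reads, to *Vim* at 330695. Of the markers of other cells that a culture from embryos could hold, all 5 mesothelial genes were at 109 to 919 normalized counts and 3 of 5 chondrocyte genes reached 10. The epithelial, the endothelial and the macrophage list each had 2 of 5 genes at 10 or more, and the skeletal muscle and the neuronal and glial list each had 1 of 5. Over the whole table, 14243 of 25039 genes reached 10. Summed levels of these lists per library cannot be given. Outside the mesothelial list, the genes of each list lay on both sides of 10. Of the chondrocyte markers, *Col2a1* had 577, *Comp* 80.6 and *Acan* 14.1 normalized counts, while *Matn1* had 0.748 and *Col9a1* was listed at 0. Of the endothelial markers, *Kdr* had 2958 and *Tek* 34.4 normalized counts, while *Pecam1* had 4.47, *Cdh5* 3.54 and *Emcn* 0. Of the macrophage markers, *Cd68* had 257 and *Csf1r* 40.1, while *Ptprc* had 3.09, *Fcgr1* 2.67 and *Adgre1* 0.178. Of the epithelial markers, *Cdh1* had 67.1 and *Cldn4* 12.4, while *Epcam* had 5.12, *Krt14* 1.54 and *Krt5* 1.17. Of the muscle markers, *Des* had 59.6 and *Myod1* was listed at 0. *Tubb3*, of neurons, had 737, while the other genes of its list were at 2.43 to 8.22. For *Lhx6*, which is also used in forebrain neurons, the markers *Gad1*, *Gad2* and *Nkx2-1* were at 0, 0.712 and 0.169, while *Dlx1* and *Dlx2*, which jaw mesenchyme also uses, were at 499.6 and 1360. In RNA from a whole culture, few cells with much of an RNA and many cells with little of it cannot be told apart, and the part of other cells in these levels was not tested.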

How the data were processed

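RNA-Seq libraries of 3 WT and 3 Anp32e null MEF cultures had been made with a stranded total RNA kit and sequenced in paired-end mode. Alignment by the authors was to mm10 and used RNA-STAR. Reads per RefSeq transcript came from featureCounts of Subread, after which the authors ran DESeq2, with default settings named for this step of counting and testing. The deposited signal column used here is the authors' mean over all 6 libraries of counts divided by size factors. The other columns hold the authors' log2 fold changes, standard errors, Wald statistics, p-values and adjusted p-values of Anp32e null against WT and were not used, so no test was made. There are no values per labelled sample, total counts per library are unknown, and the planned model for counts could not be run.

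The table holds 42361 transcripts, of which 42198 were matched to genes by RefSeq accession (GRCm38.p6) and 163 were not. For a gene with several transcripts, the one with the highest mean stood for it. Lengths, exons and gene positions came from GENCODE M21 (GRCm38, the build called mm10), by RefSeq accession without version. The homeobox was taken as 60 codons placed by its conserved motif. Means below 10 were split into whole reads per library with a tolerance of 1e-12 relative to the mean (or absolute, for means below 1), and differences between transcripts with at most 15 reads per library with tolerances of 2e-12 to 1e-11. On simulated data all 278 means and 200 differences were recovered. Intervals are exact Poisson at 95%, the limit for 0 reads is 3, and both cover counting error only. Both treat reads as independent, which mates of a pair are not if they were counted separately.

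The genes named are the 9 members, *Anp32e* and the 6 highest of a list of relatives and partners, with others named where stated. Some genes of the lists are not reported here. The members and lists were chosen with earlier results of these data known. Alternatives were other transcripts, a scale per kilobase, minimum means of 1 and 50, percentiles among genes with a mean of at least 10, and leaving out single libraries. Python 3.11.15 with numpy 2.4.6, pandas 2.3.3, scipy 1.17.1 and matplotlib 3.10.9 was used.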

Additional observations from a re-analysis of the deposited data

How the results depend on the processing

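The level of a gene depended on the transcript that stood for it. The sum of transcripts with distinct values, which counts shared reads more than once, was 12713 normalized counts for *Prrx1*, 6109 for *Lhx9*, 1095 for *Lhx2* and 570.3 for *Lhx6*. With the longest transcript, *Prrx1* fell to 2912, which left it between *Prrx2* and *Lhx9*, but per kilobase this transcript had 446 normalized counts, below the 472 of *Lhx9*, so the order of these genes turned. With the same setting *Lhx6* changed to 191.3 and the remaining 7 genes kept the same transcript. With the transcript of the highest mean, the rank of each of the 9 genes was the same per kilobase. At a minimum mean of 1 in place of 10, 7 members passed and the count of other homeobox genes rose to 12. At a minimum of 50 the counts were 6 and 3. Among genes with a mean of at least 10, the 6 members that reach it lay at percentiles 25.3 to 86.5. Without 1 library, the mean of *Alx1* ranged from 1.60 to 2.70 and that of *Alx4* from 0, without library 4, to 0.203, while *Lhx8* stayed at 0. For the other 6 genes the mean does not split in 1 way, and leaving out a library was not run. No paired analysis was possible because the table pools the libraries and gives no values per labelled sample.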

Other observations

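Other low homeobox genes were also split into reads of the 6 libraries, which have no genotype assigned. Over the 16 paired-type and LIM homeobox genes outside the members with a mean above 0 and below 10, libraries 1 to 6 had 97, 74, 21, 62, 29 and 22 reads, or 85.8, 70.4, 20.4, 62.8, 31.0 and 24.2 normalized counts. *Dmbx1*, a paired-type gene of the embryonic brain, had 16, 10, 0, 9, 0 and 0 reads. *Gsc*, a regulator of head and jaw mesenchyme, had 20, 5, 2, 15, 3 and 0 reads. *Uncx*, a regulator of the vertebral column, had 1, 0, 2, 6, 13 and 4 reads, with 13 of its 26 reads in library 5. These genes were singled out after their values were seen, and what the libraries with more reads share was not tested.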
